A study of Mus musculus with 16 samples.

Results

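Constant promoter regions were the stretches of the macrophage genome that carried an H3K27ac peak beside a protein-coding start site in every condition of the study. They were chosen by the measured peaks: the peaks of the 4 lists were merged wherever they overlapped by 1 bp, and a region was kept if each list had a peak in it, its width was under 5000 bp, and a peak summit in any list lay within 1 kb of a start site. The rule kept 9436 of 55218 merged regions (17.1%, exact 95% interval 16.8 to 17.4%), which were 44.0% of the 21468 regions found in all 4 lists. The other regions found in all 4 lists were 10535 narrower regions away from start sites, called distal here, and 1497 broad regions of 5000 bp or more.

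The cells were bone marrow-derived macrophages (BMDMs), primary cells grown from the marrow of C57Bl6 mice of 8 to 12 weeks in medium with serum and LCCM. The 4 groups were untreated cells (Control), cells given interferon gamma (IFNγ) at 100 ng/mL for 1 h, cells given 20 µM PJ34, an inhibitor of PARP-1 and related ADP-ribosylating enzymes, and cells given PJ34 from 1 h before the IFNγ (IFNγ+PJ34). How long the cells of the PJ34 group were exposed in all is not given in the sources used here, so equal exposure in both groups with PJ34 cannot be taken for granted. The study asked how IFNγ and nuclear ADP-ribosylation act on enhancers, and these regions are the promoters that stay marked throughout. Each condition had 2 ChIP and 2 input samples, which the authors combined into 1 peak list, and a spread between replicates could therefore not be computed and no difference was tested. Intervals cover counting error only, and the sequencing depth is not known from the lists.

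Acetylation of histone H3 at lysine 27 is deposited by the p300 and CBP acetyltransferases and marks active promoters and enhancers. At a promoter the mark lies on the nucleosomes that flank the start site, and the nucleosome just after the start usually carries most of it. Housekeeping promoters are typically rich in CpG dinucleotides and active in every cell type, while promoters of cell identity and signal-response genes are more often CpG-poor.

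Promoter sequences of 9 genes with a constant promoter region are given to show what these sites look like. Each is the stretch directly before the annotated 5′ end of the gene, read 5′ to 3′ on the gene's strand from the GRCm38 (mm10) genome, with motif letters in capitals. The first 4 are housekeeping genes. Polr2a (chr11:69758638-69758757, minus strand), the largest subunit of RNA polymerase II, holds 3 GC boxes (GGGCGG) and a TATA motif (TATAAA) 29 bases before the start. Mrpl10 (chr11:97041430-97041559, plus strand), a mitochondrial ribosomal protein, holds an NRF1 motif (GCGCATGCG). Ddx6 (chr9:44604772-44604891, plus strand), an RNA helicase among the 10 members of highest rank, holds 5 GC boxes that partly overlap. Psmd4 (chr3:95042615-95042754, minus strand), a proteasome subunit, holds an ETS motif (CCGGAAG) and a CCAAT box. Parp1 (chr1:180568804-180568923, plus strand), the target of PJ34, holds 3 GC boxes and an E-box (CACGTG). Gbp7 (chr3:142530192-142530341, plus strand), Zbp1 (chr2:173218924-173219053, minus strand) and Ifit1 (chr19:34640751-34640870, plus strand) are interferon-induced genes, shown with their GAS (TTCNNNGAA) and ISRE (GAAANNGAA) motifs. Itgal (chr7:127296100-127296259, plus strand), an integrin of leukocytes, was lower in both lists with IFNγ and is shown with an ETS and a PU.1 motif (GAGGAAGT). A match is a run of letters and not a measured binding site.
Polr2a: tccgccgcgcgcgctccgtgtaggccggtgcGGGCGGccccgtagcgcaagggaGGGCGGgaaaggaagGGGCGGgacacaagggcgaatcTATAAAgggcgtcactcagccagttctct
Mrpl10: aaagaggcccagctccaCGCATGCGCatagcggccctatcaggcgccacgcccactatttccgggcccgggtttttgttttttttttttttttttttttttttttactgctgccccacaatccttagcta
Ddx6: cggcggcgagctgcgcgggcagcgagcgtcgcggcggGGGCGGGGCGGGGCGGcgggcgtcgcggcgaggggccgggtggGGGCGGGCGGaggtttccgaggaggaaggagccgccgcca
Psmd4: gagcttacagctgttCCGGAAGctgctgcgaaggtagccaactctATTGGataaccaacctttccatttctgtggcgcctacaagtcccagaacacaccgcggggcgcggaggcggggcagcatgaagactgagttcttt
Parp1: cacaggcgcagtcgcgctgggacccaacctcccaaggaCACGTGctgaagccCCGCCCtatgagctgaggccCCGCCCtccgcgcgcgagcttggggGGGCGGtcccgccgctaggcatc
Gbp7: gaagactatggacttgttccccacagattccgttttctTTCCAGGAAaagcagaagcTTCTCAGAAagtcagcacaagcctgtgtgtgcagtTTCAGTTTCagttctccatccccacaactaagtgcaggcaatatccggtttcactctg
Zbp1: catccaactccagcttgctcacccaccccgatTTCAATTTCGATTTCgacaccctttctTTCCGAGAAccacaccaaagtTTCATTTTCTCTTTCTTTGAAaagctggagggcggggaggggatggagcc
Ifit1: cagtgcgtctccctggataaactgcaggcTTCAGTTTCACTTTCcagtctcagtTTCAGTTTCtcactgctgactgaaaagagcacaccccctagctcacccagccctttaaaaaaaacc
Itgal: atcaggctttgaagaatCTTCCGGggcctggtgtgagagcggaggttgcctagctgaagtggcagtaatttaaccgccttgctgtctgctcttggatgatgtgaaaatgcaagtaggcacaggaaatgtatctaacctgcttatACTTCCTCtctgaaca

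A constant promoter region lay at 9568 of 21864 protein-coding genes (43.8%, 43.1 to 44.4%). A further 759 genes (3.47%) had only a broad region in all 4 lists at their start site, 950 (4.35%) had a summit within 1 kb but no region in all 4 lists, and 10587 (48.4%) had no summit within 1 kb in any list. Of 12313 merged regions with a promoter summit, 83.0% (82.3 to 83.7%) were found in all 4 lists at any width, against 26.2% (25.8 to 26.6%) of 42905 regions without one. A region with peaks in more lists has more summits that can lie near a start site, so part of this difference follows from the rule. Most members (8274, 87.7%) belonged to 1 gene and 1126 to 2 genes, and 986 genes had 2 member regions.

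Genes that every cell needs were frequent among those with a constant promoter region, given here from gene lists chosen with earlier results of these data known and set beside the 43.8% of all protein-coding genes. All 12 RNA polymerase II subunit genes and all 75 genes of mitochondrial ribosomal proteins had a constant promoter region. The same held for 64 of 70 general transcription factor and Mediator genes, which assemble the polymerase at the start site, and for 41 of 47 splicing factors. In protein synthesis and breakdown, 78 of 84 cytosolic ribosomal protein genes, 49 of 55 translation initiation factors, 44 of 48 proteasome subunits and 30 of 37 ubiquitin-conjugating enzymes had one. Of 83 respiratory chain subunits 74 had one, and of 30 DNA repair factors 28. The enzymes that write, erase and read histone acetylation were also represented, with 27 of 30. Among them were Ep300 and Crebbp, which encode p300 and CBP. Of 19 PARP enzymes and ADP-ribose hydrolases 17 had one, and Parp14 and Tiparp had broad regions instead.

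Macrophage genes were marked in all 4 lists too, but mostly over broader regions. Of 24 macrophage identity genes only 8 had a constant promoter region, among them Cebpa, Runx1 and Mitf, which encode transcription factors, and Tyrobp and Aif1. Another 15, including Csf1r, the receptor for the growth factor of these cells, Cebpb, Irf8, Cd68, Itgam and Lyz2, lay in broad regions. Spi1, which encodes PU.1, had a promoter summit only in the PJ34 list. V-ATPase subunits and lysosomal proteases were more often at constant promoter regions (16 of 33) than at broad regions (10), and 7 had no promoter summit. Of 15 glycolytic enzymes 10 were at constant promoter regions and 5 at broad ones.

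Promoters of other cell types were nearly absent. No member belonged to the 10 neutrophil and granule markers, the 10 erythroid and mast cell markers or the 10 stromal and fibroblast markers. The 10 T cell markers gave only Cd28 and the 10 B cell markers only Ms4a1. Of 1417 olfactory and vomeronasal receptor genes 6 had a constant promoter region (0.423%, 0.156 to 0.919%), of 49 keratins 1, and of 15 neuronal, liver and muscle genes 1 (Actn3). The share of genes with a member ranged over the autosomes from 36.1% on chromosome 7 to 53.3% on chromosome 12. Without the receptor genes, chromosome 7 was at 44.8%. The X chromosome was at 29.4% and the Y chromosome held 4 members at its 183 genes.

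**Figure D1:**
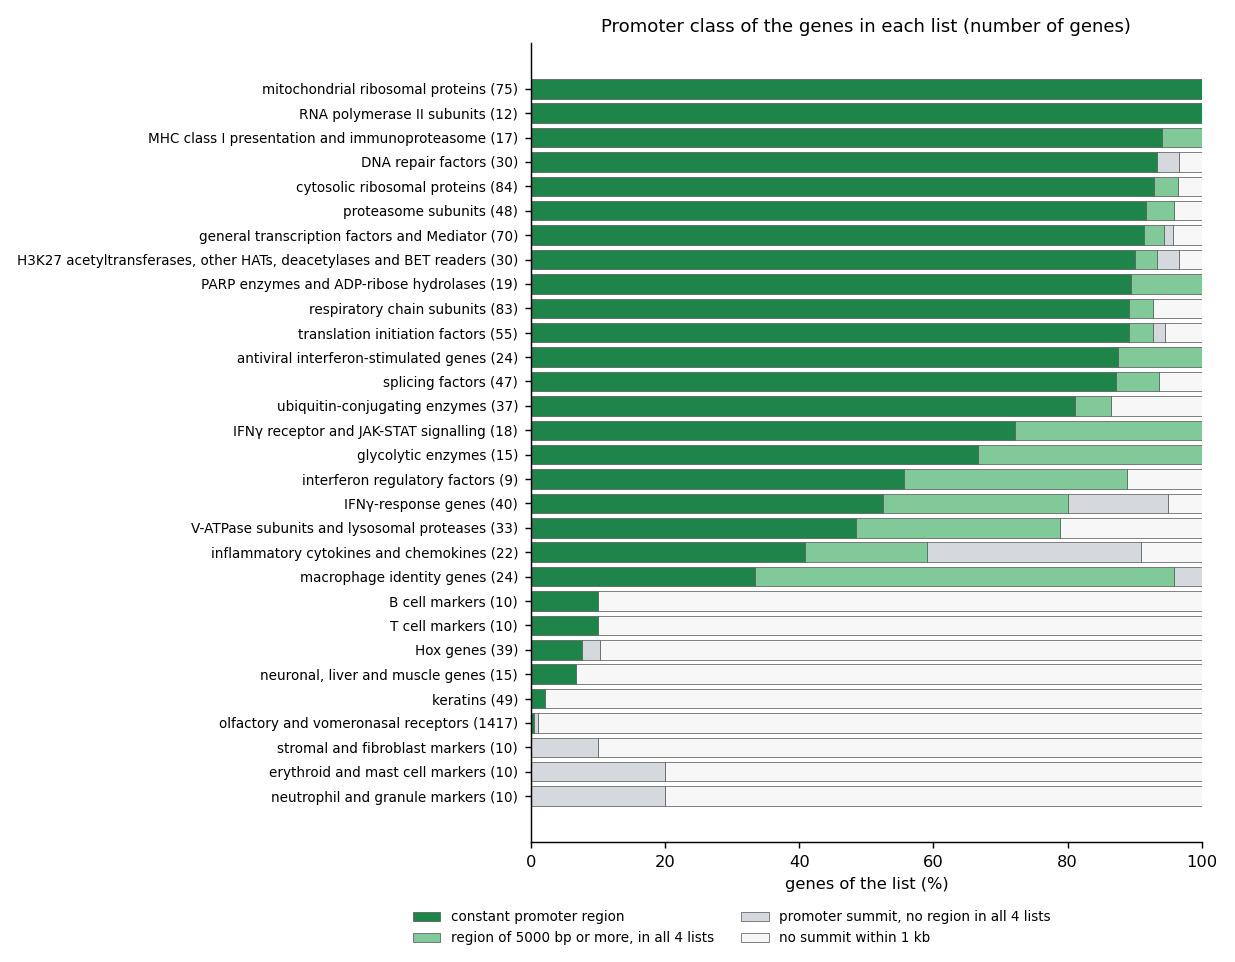
Share of the genes in each list (x axis, %) by promoter class, with the number of matched genes in parentheses. The dark bars are genes with a constant promoter region, from all 12 RNA polymerase II subunits and 75 mitochondrial ribosomal proteins at the top to 0 of 10 genes for stromal, erythroid and neutrophil markers, and 15 of the 24 macrophage identity genes fall in the lighter class of broad regions.

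The mark at constant promoters was strong in each list. A region's level was taken as the highest fold enrichment of its peaks in a list, that is the ratio of ChIP signal at the summit to the local background given by the peak caller, and its percentile as the rank of that value among all peaks of the list. The median fold enrichment over the 9436 members was 22.9 in Control (middle 50% of members 12.5 to 38.1), 16.4 in IFNγ (8.47 to 29.6), 21.3 in PJ34 (11.03 to 35.5) and 16.3 in IFNγ+PJ34 (9.18 to 26.7). The medians were thus lower in both lists from IFNγ-treated cells. The members' median percentile was 83.5, 81.4, 84.8 and 79.2 in the same order. Distal regions found in all 4 lists had medians of 9.28, 6.67, 7.04 and 8.33, so the promoter median was 2.47, 2.47, 3.02 and 1.96 times the distal median. Broad regions stood above both, at 39.7, 29.8, 30.5 and 32.3. The distal median was thus also lower after IFNγ than in Control. In the 2 lists with PJ34 it was higher with IFNγ, at 8.33 against 7.04. The broad median was also higher there, at 32.3 against 30.5, while the members' median was lower, at 16.3 against 21.3. Over all peaks of a list, including those absent from other lists, the median was 6.12, 5.51, 5.26 and 6.32.

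Members also kept their rank better than distal regions. The range of a member's percentile over the 4 lists had a median of 13.1 points, against 29.5 points for distal regions. It was under 10 points for 3469 members (36.8%) and 7.54% of distal regions, and 40 points or more for 615 members (6.52%) and 30.3% of distal regions. Regions near the top of a list have less room to change rank, and the part of that limit was not tested. The lowest percentile fell in the IFNγ+PJ34 list for 44.8% of the members and the highest in the PJ34 list for 40.7%.

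The functional groups differed in level, given here for Control. The 13 regions of IFNγ receptor and JAK-STAT signalling had a median fold enrichment of 54.5 in Control and the 15 of MHC class I presentation of 46.0. V-ATPase and lysosomal genes had a median of 43.3, ubiquitin-conjugating enzymes of 42.0, antiviral genes of 41.9, glycolytic enzymes of 38.8, macrophage identity genes of 38.6, proteasome subunits of 34.8, translation initiation factors of 34.7 and cytosolic ribosomal proteins of 34.0. RNA polymerase II subunits were near the median of all members at 24.5, as were mitochondrial ribosomal proteins at 23.1 and DNA repair factors at 21.4. The 9 inflammatory cytokine and chemokine promoters were low, at 8.33. They included Il6, Il1a, Il1b, Il10 and Ifnb1, whose products are made after stimulation. A further 7 genes of that list, Ccl2 and Ccl5 among them, had a promoter summit in 1 to 3 lists only. The order of the groups was not the same in the other lists. In the IFNγ list the median was 52.0 for MHC class I presentation and 38.2 for proteasome subunits. It was 28.7 there for IFNγ receptor and JAK-STAT signalling and 22.6 for macrophage identity genes.

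The highest-ranked members by mean percentile were Tbc1d5, a regulator of endosome traffic, and Flcn, the tumour suppressor folliculin. Tbc1d5 was at 114 in Control and 101 after IFNγ, 93.3 with PJ34 and 104 with IFNγ+PJ34. Flcn was at 154, 80.2, 93.2 and 91.1 in the same order, and Ddx6 at 99.5, 85.2, 103 and 72.5. Stam and Stam2, which encode related adaptors of receptor sorting on endosomes, were both among the first 10, as were the RNA-binding protein genes Hnrnpa0 and Rbm39, Srxn1, Pcif1 and Tm9sf1. Ep300 was close behind, at 125, 77.4, 81.4 and 56.4. At the other end, Gpr3, a G protein-coupled receptor, was at 2.48, 2.73, 3.06 and 2.71 in a region of 415 bp, and the low members Dnal1, Timm13 and Gda had mean percentiles of 11.9 to 14.1. By width, the members nearest the limit were the regions of Cxcl16 and Zmynd15 (4999 bp), Odr4 and Tpr (4996 bp) and Ms4a7 (4988 bp), while those of Tfe3 (5006 bp), Rap1a (5007 bp) and Rgl1 (5008 bp) were just outside. By distance, Plxnb2 (1000 bp), Zscan2 (999 bp) and Bicral (986 bp) were just inside, and the nearest regions outside had their closest summit 1008, 1009 and 1010 bp from a start site.

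Members were narrower and more often split into several peaks after IFNγ. The merged regions had a median width of 1776.5 bp. The bases a list's own peaks covered in a member had a median of 1597 bp in Control and 1412 bp after IFNγ, 1548.5 bp with PJ34 and 1350.5 bp with IFNγ+PJ34. The peaks covered a median of 93.4%, 82.7%, 90.7% and 79.2% of the merged region. The IFNγ+PJ34 list was the narrowest for 49.5% of the members and Control the widest for 43.3%. More than 1 peak lay in 871 members (9.23%) in Control and 1773 (18.8%) after IFNγ, 1426 (15.1%) with PJ34 and 2040 (21.6%) with IFNγ+PJ34. Of the members with 1 gene and exactly 2 peaks, the 2 summits lay on opposite sides of the start site in 54.8%, 58.6%, 59.0% and 65.5%, with a median of 822, 755, 794 and 683 bp between them. Distal regions were split more often than members in each list, in 18.6%, 28.6%, 29.2% and 27.4%. Their peaks covered a median of 1331 bp in Control and 1014 bp after IFNγ, 1096 bp with PJ34 and 1066 bp with IFNγ+PJ34. For broad regions these medians were 5981, 5308, 5794 and 5362 bp. The lower width in the lists with IFNγ was thus not particular to members. Whether depth or signal to noise of the lists has a part in the differences in width and splitting was not tested.

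The summit sat just after the start site in every condition. For the highest-scoring peak of a member, the median position along the gene's strand was 160 bp downstream of the start in Control and 170 bp after IFNγ, 163 bp with PJ34 and 155 bp with IFNγ+PJ34. Summits lay downstream in 76.0%, 76.5%, 77.0% and 75.5% of the members, and within 100 bp of the start in only 12.6%, 12.4%, 12.2% and 12.9%. A smaller group of summits lay further upstream, with a dip at the start site between both groups. Among the 8274 members with 1 gene, the summit was downstream in all 4 lists in 5713 (69.0%), upstream or at the start in all 4 lists in 1507 (18.2%), and on different sides in 1054 (12.7%). The 4 summits of such a member spanned a median of 72 bp. The rule used the distance to a start site, so only the side and the spacing within 1 kb are described here.

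**Figure D2:**
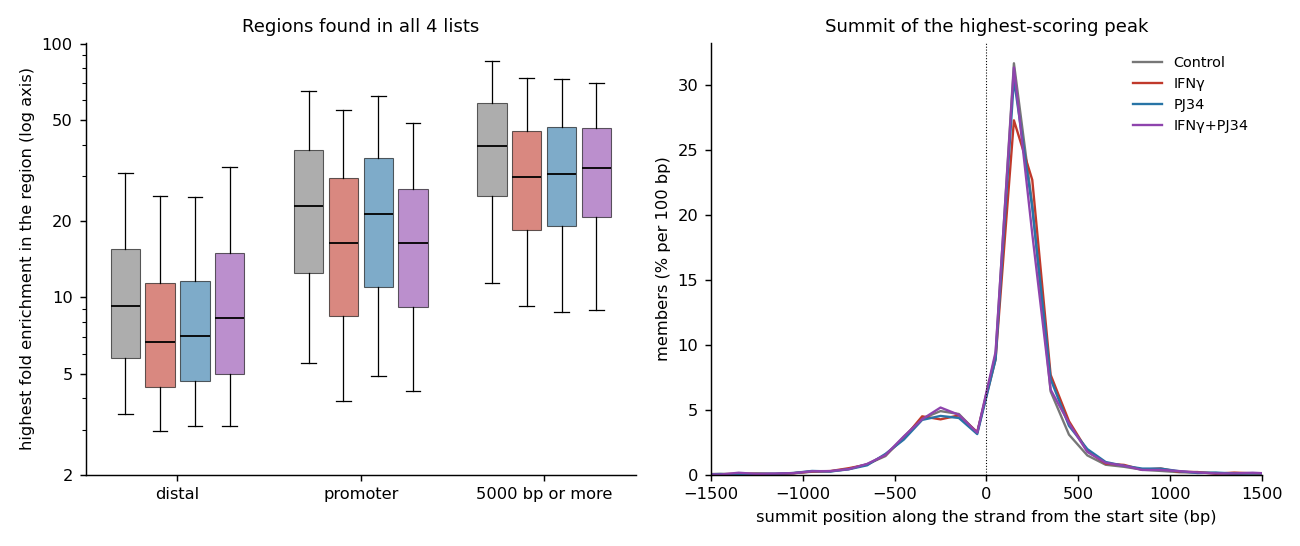
Left, highest fold enrichment per region (log axis) for distal, promoter and broad regions found in all 4 lists, where boxes give the middle 50% with the median, whiskers the 5th and 95th percentiles, and colours the 4 lists. Promoter medians (22.9, 16.4, 21.3 and 16.3) lie between distal and broad ones. Right, share of members (%, per 100 bp) by position of the summit from the start site (bp, positive downstream), which peaks just downstream in all 4 lists.

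Sequence, which the rule did not use, set these promoters apart. Windows of 300 bases, from 250 before to 50 after the 5′ end of the gene, were read for the 8936 genes whose own 5′ end lay within 1 kb of a member's summit, for all 21851 genes on the assembled chromosomes, and for the 11164 genes with no summit within 1 kb of that end. Member windows had a median GC content of 60.3%, against 55.0% over all promoters and 49.7% over promoters without a summit. The CpG ratio, the number of CpG dinucleotides over that expected from the C and G content, had a median of 0.786, 0.524 and 0.249. It was 0.6 or more, a usual limit for CpG islands, in 76.7%, 44.3% and 17.4% of the windows. Among members it also went with level: 84.2% of promoters among the highest-ranked 20% of the members passed that limit and 62.6% among the lowest 20%.

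Motifs known from housekeeping promoters were frequent in member windows. Each motif was searched on both strands. The GC box, bound by SP and KLF factors, was found in 64.3% of member windows (63.3 to 65.3%), 43.0% of all promoters and 24.2% of promoters without a summit. The ETS motif was found in 21.1% (20.3 to 22.0%), 10.8% and 2.87%, the NRF1 motif in 4.29%, 2.48% and 1.15%, the YY1 motif (AAGATGGCG) in 3.46%, 1.68% and 0.286%, the CRE (TGACGTCA) in 3.94%, 2.43% and 1.23%, the E-box in 10.9%, 7.75% and 5.03%, and the ZNF143 motif (ACTACAATT) in 0.806%, 0.499% and 0.251%. The TATA motif went the other way, at 6.39% (5.89 to 6.92%), 12.7% and 17.8%, as did AP-1 (TGANTCA) at 4.32%, 6.90% and 9.04%. GAS was at 7.08%, 8.39% and 9.41%, and GAS with its ends exchanged (GAANNNTTC), a letter control, at 5.05%, 6.37% and 7.70%. The ISRE at 7.61%, 8.48% and 8.94%, the PU.1 motif at 3.16%, 3.24% and 3.11% and the CCAAT box at 39.6%, 39.0% and 38.9% differed little. GC-rich motifs are more likely in GC-rich windows, and these shares were not adjusted for base composition. GAS and ISRE can share the letters GAA, and PU.1 and ETS motifs the letters GGAAG.

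**Figure D3:**
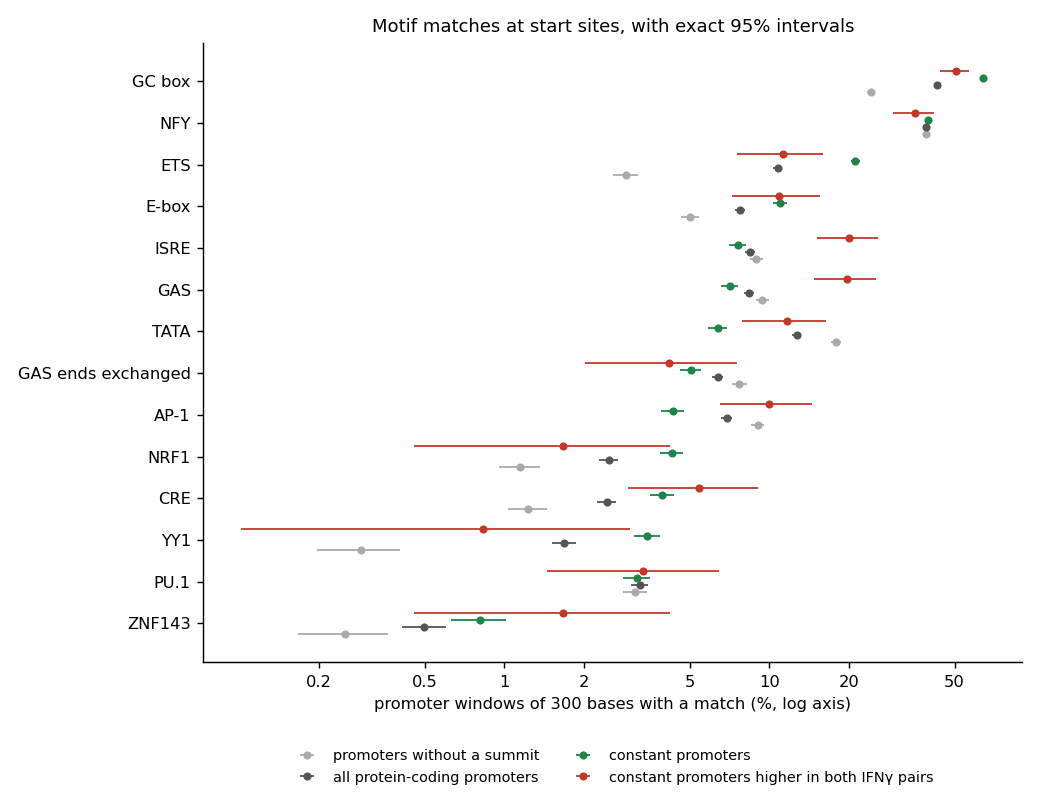
Share of promoter windows of 300 bases with a match to each motif (%, log axis), with exact 95% intervals as bars. Constant promoters (green) lie above all protein-coding promoters (dark grey) for GC box, ETS, E-box, NRF1, CRE, YY1 and ZNF143. They lie below them for TATA, AP-1, GAS and the letter control, GAS with its ends exchanged. The members higher in both IFNγ pairs (red) stand at 19.6% for GAS and 20.0% for ISRE.

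CpG-poor constant promoters, those with a ratio under 0.6, numbered 2083 genes. Their regions had a lower median fold enrichment than the CpG-rich ones, 20.8 against 26.5 in Control, 14.0 against 19.6 in IFNγ, 17.0 against 25.1 in PJ34 and 15.2 against 18.3 in IFNγ+PJ34. They held a TATA motif in 10.9% against 5.02%, an AP-1 motif in 7.63% against 3.31%, a PU.1 motif in 5.33% against 2.495% and an ETS motif in 10.8% against 24.2%.

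Divergent gene pairs, in which genes on opposite strands start within 1 kb of each other and point apart, mostly had a constant promoter region. Of 1968 genes in such pairs 1695 (86.1%, 84.5 to 87.6%) had a constant promoter region, against 7873 of 19896 other genes (39.6%, 38.9 to 40.3%). A summit within 1 kb of both start sites counts for both genes of a pair, so part of this difference follows from the rule. The 915 members with both start sites of a pair had a median fold enrichment of 26.3 in Control and a median of 1877 bp of peak, against 22.6 and 1563 bp for the other members.

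Levels were then compared between lists. For each comparison the log2 ratio of fold enrichments was centred on its median over the 21468 regions found in all 4 lists, and a region was counted as higher or lower when the centred ratio passed 1.5-fold. That median was -0.41 for IFNγ against Control, -0.21 for PJ34 against Control, -0.13 for IFNγ+PJ34 against PJ34 and 0.10 for IFNγ+PJ34 against IFNγ, and all ratios below are relative to it. Members must have a peak in every list, so a promoter that gained or lost its whole peak cannot be among them.

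IFNγ against Control left most constant promoters within 1.5-fold. Higher were 1438 members (15.2%), beside 20.7% of all regions found in all 4 lists, and lower were 1663 (17.6%), beside 21.1%. The members' median ratio was -0.02. Without centring, 449 members were higher and 3689 lower, so higher members made up 10.9% of those past the fold in place of 46.4%. With PJ34 present, the comparison of IFNγ+PJ34 against PJ34 gave 1231 higher members (13.0%), beside 27.3%, and 2891 lower ones (30.6%), beside 23.9%. Here the members' median was -0.24 and that of distal regions 0.30. Promoters and distal regions thus moved apart in this pair of lists, and less so without PJ34, where the distal median was 0.02. The ratios are centred over regions that are mainly of these classes, so opposite signs of their medians follow from the centring. The difference between the comparisons was not tested. These 2 comparisons share no list.

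Members higher in both IFNγ pairs numbered 273 (2.89%), beside 7.74% of all regions found in all 4 lists, and 398 were lower in both (4.22%), beside 3.61%. Without centring these counts were 119 and 1264. The interferon genes stood out among the higher ones. Of the 40 IFNγ-response genes 21 had a constant promoter region, in 20 regions since Parp9 and Dtx3l share 1. A further 11, including Irf1, Irf8, Socs1 and Gbp5, lay in broad regions, and Cxcl9, Tgtp1, Gbp4, Gbp8, Iigp1 and Il12rb1 had a promoter summit in 2 or 3 lists only. All 6 but Il12rb1 had one in both lists with IFNγ, and none of the 6 had one in the PJ34 list. Of the 20 regions 18 were higher in IFNγ than in Control and 0 lower, with a median ratio of 1.08. In IFNγ+PJ34 against PJ34, 15 were higher and 1 lower, with a median of 1.11, and 13 were higher in both.

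Guanylate-binding proteins, GTPases that act against intracellular pathogens, showed this clearly. Gbp7 was at 20.0 in Control and 42.7 after IFNγ, 16.1 with PJ34 and 64.0 with IFNγ+PJ34, with centred log2 ratios of 1.51 and 2.12 in the IFNγ pairs. Gbp2 was at 23.1, 35.4, 25.6 and 50.3, with ratios of 1.02 and 1.11. Both lists with IFNγ lay above both lists without it for these genes. The chemokine gene Cxcl10 was at 6.53, 20.0, 10.7 and 42.2, with ratios of 2.03 and 2.103. Ciita, the master regulator of MHC class II, was at 9.86, 21.4, 8.14 and 16.1, and Batf2, an AP-1 family factor, at 5.87, 17.2, 5.01 and 11.9, so these too were higher in both lists with IFNγ. Nos2, which encodes the inducible nitric oxide synthase, was at 4.35, 10.6, 9.03 and 8.44, with a ratio of 1.69 without and 0.03 with PJ34. Igtp, an immunity-related GTPase, was the lower one in the second pair, at 46.1, 55.5, 44.1 and 25.9 with ratios of 0.68 and -0.64.

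Antiviral interferon-stimulated genes were constant promoters in 21 of 24 cases. In IFNγ against Control 9 were higher and 1 lower, where 15.2% of members and 20.7% of all regions were higher. In IFNγ+PJ34 against PJ34 15 were higher and 0 lower, where 13.0% of members and 27.3% of all regions were higher. Higher in both were 8, where 2.89% of members and 7.74% of all regions were. Ifit1, which binds viral RNA, was at 19.2 in Control and 38.1 after IFNγ, 12.5 with PJ34 and 40.2 with IFNγ+PJ34. Zbp1, a sensor of Z-form nucleic acids, was at 42.6, 58.1, 15.2 and 58.0, so its ratio was 0.86 without PJ34 and 2.06 with it. Isg20, an RNA exonuclease, was at 12.3, 25.1, 11.1 and 31.1, and Oas3, which makes the activator of RNase L, at 47.0, 76.8, 35.1 and 86.1. In PJ34 against Control 7 of the 21 were lower and 1 higher, with a median of -0.33. Here 11.9% of members and 19.6% of all regions were lower, and 16.9% and 16.8% were higher. Genes of MHC class I presentation had 16 of 17 at constant promoters, in 15 regions. In IFNγ against Control 5 of these regions were higher and 0 lower, with a median of 0.45. In IFNγ+PJ34 against PJ34 5 were higher and 1 lower, with a median of -0.002, so most did not pass 1.5-fold. Only 4 regions were higher in both IFNγ pairs. Tap1 and Psmb9, which encode a peptide transporter and an immunoproteasome subunit, share 1 region (chr17:34185854-34188702), which was at 28.8, 63.8, 36.6 and 69.5, and Psmb8, another immunoproteasome subunit, at 26.2, 41.4, 35.2 and 59.1.

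**Figure D4:**
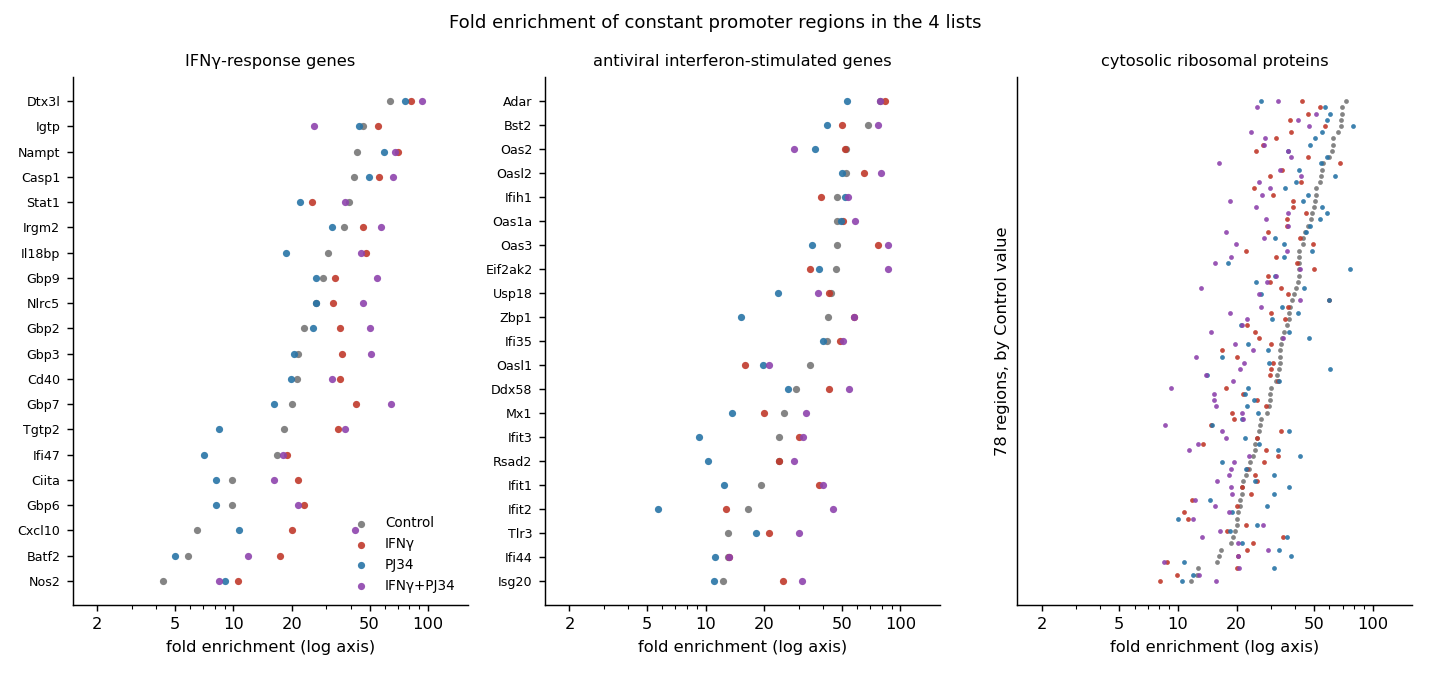
Fold enrichment (log axis) of each constant promoter region in the 4 lists, 1 row per region, for IFNγ-response genes, antiviral interferon-stimulated genes and, for comparison, the 78 cytosolic ribosomal protein regions, each ordered by the Control value. In the left panel, 13 of the 20 regions pass 1.5-fold upward in both IFNγ pairs, while among ribosomal protein regions the IFNγ+PJ34 points lie mostly to the left.

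The highest ratios shared by both IFNγ pairs, ranked by the smaller ratio, also came from genes outside these lists. Art3, which lies near Cxcl10 on chromosome 5, was at 4.45 in Control and 32.8 after IFNγ, 5.82 with PJ34 and 29.4 with IFNγ+PJ34. Kmo, an enzyme of tryptophan breakdown, was at 1.94, 5.04, 4.48 and 20.0. Its Control value was near the lowest of that list, 1.63, so its ratios to Control rest on a very low value. Kmo also ranked first among the rises shared by the PJ34 pairs, with ratios of 1.41 and 1.89. Ly6a, an interferon-inducible surface antigen, was at 10.5, 25.1, 9.22 and 26.96. Trim30a was at 23.6, 68.2, 21.6 and 59.1, and Ifi205 at 12.7, 28.8, 9.77 and 27.1. In each of these 5 both lists with IFNγ exceeded both lists without it. They were chosen by these same ratios, so this follows largely from the choice. Tmigd3, Prmt5, an arginine methyltransferase, and Aldh18a1, an enzyme of proline synthesis, were also among the first 10. Tmigd3 was at only 2.96 in Control and 2.92 with PJ34, and Prmt5 at 2.02 and 2.71. The ratios of Tmigd3 and Prmt5 thus rest on low values too.

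The lowest ratios shared by both IFNγ pairs came from genes of varied function. Itgal was at 22.3 in Control and 5.66 after IFNγ, 19.7 with PJ34 and 5.94 with IFNγ+PJ34, with ratios of -1.57 and -1.60. Slc29a1, a nucleoside transporter, was at 12.6, 3.33, 11.8 and 3.05. Rilp, a Rab7 effector of lysosomes, was at 32.0, 7.25, 20.1 and 6.87. Smarcd2, a subunit of the SWI/SNF remodelling complex, was at 20.5, 5.94, 12.8 and 4.75, and the kinase gene Nlk at 15.4, 4.42, 11.5 and 3.79. For each of these the lists with IFNγ lay below both lists without it. They too were chosen by these ratios, so this follows largely from the choice. The share of members lower in both pairs, 4.22%, was close to the 3.61% of all regions found in all 4 lists. Of the 8 macrophage identity regions 6 were lower and 2 higher in IFNγ than in Control, where 17.6% of members and 21.1% of all regions were lower. Among the lower ones was Mertk, a receptor for apoptotic cells, at 21.7 and 4.06. In IFNγ+PJ34 against PJ34, 2 of the 8 were lower and 1 higher, where 30.6% of members and 23.9% of all regions were lower. Mertk was the higher one, at 6.57 in PJ34 and 24.1 in IFNγ+PJ34, and the difference between the comparisons was not tested.

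Other members passed 1.5-fold in opposite directions in the IFNγ pairs. Higher without and lower with PJ34 were 447 members (4.74%), beside 4.62% of all regions found in all 4 lists, and lower without and higher with PJ34 were 303 (3.21%), beside 6.85%. The first share was close to the background. Without centring the counts were 146 and 423, so the larger group turned. The 3 genes named here were chosen after their values were seen. Gclm, a subunit of glutathione synthesis, was at 7.51 in Control and 34.1 after IFNγ, 19.6 with PJ34 and 5.00 with IFNγ+PJ34. Creg1 was at 7.84, 25.3, 30.0 and 5.30. Cd300lf, an inhibitory receptor of myeloid cells, was at 27.4, 5.61, 9.33 and 45.5.

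**Figure D5:**
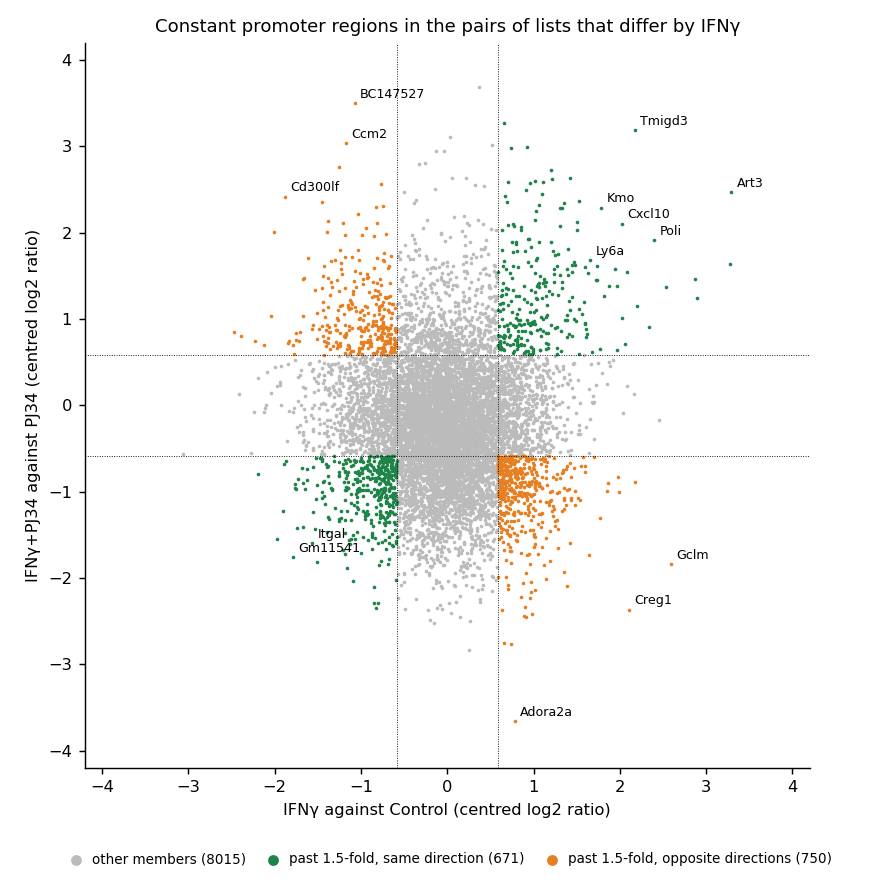
Centred log2 ratio of IFNγ against Control (x axis) and of IFNγ+PJ34 against PJ34 (y axis) for the 9436 members, 1 point each, with dotted lines at 1.5-fold. Past both lines in the same direction were 273 higher and 398 lower members, such as Art3 and Itgal, and 447 and 303 lay past them in opposite directions, such as Gclm and Cd300lf.

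Housekeeping lists varied in IFNγ+PJ34 against PJ34, where 30.6% of members and 23.9% of all regions were lower. Here 31 of 78 cytosolic ribosomal protein regions were lower and 1 higher, with a median of -0.41. For general transcription factors and Mediator 28 of 64 were lower and 3 higher (median -0.52), for ubiquitin-conjugating enzymes 18 of 30 and 3 (-0.66), for translation initiation factors 20 of 49 and 7 (-0.49) and for RNA polymerase II subunits 7 of 12 and 1 (-0.60). Splicing factors gave 14 of 41 and 1, and respiratory chain subunits 25 of 74 and 3. Mitochondrial ribosomal proteins (22 of 74 and 8), proteasome subunits (13 of 44 and 5), DNA repair factors (8 of 28 and 5) and the acetylation machinery (6 of 27 and 2) were at or below the share of all members. Polr2a was at 39.9 in Control and 27.3 after IFNγ, 39.1 with PJ34 and 17.6 with IFNγ+PJ34, so the last list stood below the other 3. Kat5, the TIP60 acetyltransferase, was at 52.4, 37.6, 78.4 and 16.8. By CpG content, 33.2% of CpG-rich member regions were lower in this comparison and 9.24% higher, against 25.9% and 20.0% of CpG-poor ones. By level, the median ratio was -0.07 in the lowest-ranked 20% of the members and -0.33 in the highest 20%. After the lists were matched to the same distribution of values, these medians were -0.24 and -0.26.

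The IFNγ+PJ34 list was also compared with IFNγ alone. Higher were 1410 members (14.9%), beside 24.0%, and lower were 2331 (24.7%), beside 22.1%. Without centring, higher members made up 48.2% of those past the fold in place of 37.7%. Cytosolic ribosomal proteins again gave 35 lower and 3 higher of 78 (median -0.47), translation initiation factors 22 and 5 of 49 (-0.51) and proteasome subunits 20 and 1 of 44 (-0.46). Mitochondrial ribosomal proteins gave 18 and 18 of 74 (0.06) and RNA polymerase II subunits 3 and 2 of 12 (0.04). Of 10 glycolytic enzymes 6 were lower and 1 higher, with a median of -0.80. Gapdh was at 45.7 in Control and 74.4 after IFNγ, 29.1 with PJ34 and 20.0 with IFNγ+PJ34, and Pgk1 at 31.4, 40.9, 33.8 and 10.5. Hk2, a hexokinase, was at 19.4, 61.6, 26.0 and 27.7. Each of these 3 was highest in the IFNγ list. Of all 10, only 4 were higher and 0 lower in IFNγ than in Control (median 0.24), where 20.7% of all regions were higher. The 20 IFNγ-response regions were level in this comparison, with 2 higher, 2 lower and a median of 0.06.

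PJ34 against Control gave 1596 higher members (16.9%), beside 16.8%, and 1120 lower ones (11.9%), beside 19.6%. The members' median was 0.10 and that of distal regions -0.10, and the members' median turned negative without centring. There, higher members made up 31.9% of those past the fold in place of 58.8%. Mitochondrial ribosomal proteins had 16 higher and 4 lower of 74 (median 0.30). Parp1 itself was at 21.6 in Control and 8.90 after IFNγ, 8.20 with PJ34 and 14.2 with IFNγ+PJ34, with centred ratios of -0.87 for IFNγ and -1.19 for PJ34 against Control. Ep300 and Crebbp were within 1.5-fold in all 4 comparisons after centring. Without centring both were lower past 1.5-fold in IFNγ than in Control, and Ep300 also in PJ34. The PJ34 pairs, PJ34 against Control and IFNγ+PJ34 against IFNγ, share no list. Higher in both were 157 members (1.66%), beside 2.37%, and lower in both were 160 (1.70%), beside 2.23%. Without centring these counts were 91 and 254. Higher in PJ34 than in Control but lower in IFNγ+PJ34 than in IFNγ were 491 members, and 323 were lower and then higher. Among the 21468 regions found in all 4 lists these groups numbered 1142 and 1787. Without centring the members in them numbered 218 and 547. More members thus turned between the PJ34 pairs than passed 1.5-fold in the same direction in both, and the difference between the comparisons was not tested. Acod1, which makes itaconate in activated macrophages, was at 13.2 in Control and 13.9 after IFNγ, 28.7 with PJ34 and 34.4 with IFNγ+PJ34. The chemokine gene Ccl12 was at 11.8, 16.2, 22.4 and 37.1. Both were higher in the lists with PJ34, which follows largely from their choice by the ratios of the PJ34 pairs. Among those lower in both, 2 genes were chosen in the same way. Hist1h3e, a histone H3 gene, was at 8.62, 8.02, 2.59 and 3.59, and Pdp1, a pyruvate dehydrogenase phosphatase, at 16.6, 9.87, 6.01 and 4.46.

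Promoters of members higher in both IFNγ pairs held GAS and ISRE letters more often than members as a whole. The 240 promoters of members higher in both held GAS in 19.6% (14.8 to 25.2%), against 7.08% of all members, and ISRE in 20.0% (15.1 to 25.6%), against 7.61%. GAS with its ends exchanged was found in 4.17% (2.02 to 7.53%) of them, against 5.05%. They held a TATA motif in 11.7% (7.89 to 16.4%), AP-1 in 10.0% (6.51 to 14.5%) and ETS in only 11.3% (7.55 to 15.9%), and 53.3% had a CpG ratio of 0.6 or more. The 372 promoters of members lower in both were near all members, with GAS in 7.53% (5.06 to 10.7%), ISRE in 5.91% (3.74 to 8.82%), ETS in 16.9% (13.3 to 21.1%) and a CpG ratio of 0.6 or more in 72.6%. The motifs of Gbp7, Zbp1 and Ifit1 printed above are of this kind, and those genes passed 1.5-fold in both pairs.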

How the data were processed

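H3K27ac ChIP-seq of mouse BMDMs was analysed from 4 deposited peak lists. Bowtie was used by the authors to align the reads (mm10), and Samtools and Picard to filter them for quality and unique mapping. MACS then called permissive peaks in either replicate over its input (p-value 0.01), of which those overlapping between replicates were deposited. Which replicate or pool the values come from is not given in the sources used here. The deposited columns used were a score from 10 to 1000, a fold enrichment (a ratio over local background), −log10 p-values and q-values, and the summit offset, all as the authors' peak caller wrote them. No counts or depths are in the lists.

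Start sites were 41451 ends of protein-coding transcripts of 21864 genes in GENCODE release M21 (basic set), and sequence came from the RefSeq copy of GRCm38, whose chromosomes held all peaks. Of 2364 gene list entries 2362 matched. Members, gene lists, motifs and printed sequences were chosen with earlier results of these data known. Named genes were those of the gene lists, the extremes of mean percentile and of the changes shared by paired comparisons, and the regions at the limits of the rule. Changes past 1.5-fold are descriptions, with 1 list per condition and no test. Intervals are exact Clopper-Pearson at 95%. Python 3.11.15, pandas 2.3.3, scipy 1.17.1 and pysam 0.24.0 were used. The code was tested on simulated data. Alternatives covered merging, thresholds, distances, widths, centring, peak values and windows. The IFNγ and PJ34 pairs were compared without replicate values, and the input samples were not analysed here.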

Additional observations from a re-analysis of the deposited data

Results flagged for a closer look

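A group of 447 constant promoter regions was higher by 1.5-fold in IFNγ than in Control and lower by 1.5-fold in IFNγ+PJ34 than in PJ34. Another 303 were lower and then higher. They are listed because the direction of the IFNγ comparison turned with PJ34. With 1 list per condition, the difference between the comparisons was not tested, and the first share was close to that of all regions found in all 4 lists. Without centring the groups numbered 146 and 423, so which was larger depended on the scaling.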

How the results depend on the processing

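No paired analysis was possible because the 2 replicates of a condition were merged into 1 list before deposit. Leaving out a replicate was likewise not possible. The count of constant promoter regions stayed within 1.5 times under all alternatives. The share of genes with one was 39.4% where peaks of each list had to cover 50% of the region, 42.6% with peaks merged within 200 bp, 37.9% when only higher-scoring peaks (50% per list) were used, 42.5% and 44.5% with start sites within 500 bp and 2 kb, 42.8% with a summit near a start in each list, 41.2% with gene 5′ ends only, and 41.5% and 47.2% with a width limit of 4000 bp and none. Starts of every basic-set transcript, an alternative chosen after seeing the data, left both within these limits.

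Median widths in Control, IFNγ, PJ34 and IFNγ+PJ34 were 1542, 1293, 1461 and 1204 bp for the highest-scoring peak and 1773, 1561, 1722 and 1481 bp with the higher-scoring 50%. Median fold enrichments were 27.9, 20.5, 25.7 and 19.5 with the higher-scoring 50%, and 15.8, 20.6 and 15.5 in IFNγ, PJ34 and IFNγ+PJ34 as length-weighted means. Without centring, 449 members were higher and 3689 lower in IFNγ against Control, and 857 and 1828 in PJ34 against Control. At 2-fold the counts were 443 and 600 for IFNγ against Control, 408 and 322 for PJ34 against Control, 546 and 1245 for IFNγ+PJ34 against PJ34, and 517 and 888 for IFNγ+PJ34 against IFNγ. Members higher in both IFNγ pairs numbered 450 with −log10 p of the highest peak. The summit nearest the start lay at 166 bp in IFNγ and 151 bp in IFNγ+PJ34. Windows of 600 bases gave a GC content of 56.2% and a CpG ratio of 0.720. With the −log10 p of the highest peak, Igtp turned to 0.60 in IFNγ+PJ34 against PJ34, Oasl1 to 0.31 in IFNγ against Control and Psmb8 to -0.036 in PJ34 against Control, and the cause was not tested. Of 268 values of named regions past 1.5-fold, 219 stayed past it without centring, 247 with matched distributions, 255 with length-weighted means and 231 with −log10 p. Depth is unknown, so its limits cannot be given.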

Other observations

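Some inducible promoters came close to being constant but missed 1 or more lists. Gbp4, Gbp8 and Iigp1 had a promoter summit in 3 lists and lacked it in PJ34, and Cxcl9 and Tgtp1 had one in the 2 lists with IFNγ only. The inflammatory genes Ccl5, Cxcl1, Cxcl3 and Ptgs2 lacked one in IFNγ+PJ34 only, Ccl2 in Control only, and Il12b and Csf3 had one in PJ34 only. The inflammatory genes Tnf, Ccl3, Ccl4 and Cxcl2 lay in broad regions found in all 4 lists. Only summits within 1 kb of a start site were counted here, and peaks over the gene with a more distant summit were not.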
